A study of Mus musculus with 6 samples.

Results

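The genes described were *Garre1* (listed in the count matrix under its older symbol 4931406P16Rik) and 9 subunits of the CCR4-NOT complex, *Cnot1*, *Cnot2*, *Cnot3*, *Cnot4*, *Cnot6*, *Cnot6l*, *Cnot7*, *Cnot8* and *Cnot10*. These 10 genes are 10 of the 55455 rows with a gene symbol among the 61880 rows of the matrix. Each was found by its symbol. All rows that carried the same assembled locus number were then added together, and the percentage of that sum held by the row with the symbol was taken as its share. *Garre1* was chosen because its row with the symbol differed between the genotypes in these samples, so its values are given as a description without a test. The CCR4-NOT subunits were chosen for their function, with earlier results of these data known.

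The samples were epithelial cell isolates of inguinal mammary glands, taken at puberty from female FVB/NJ mice aged 6 to 8 weeks, and their total RNA was sequenced. The 3 *fat-1* samples came from transgenic mice that carry the n-3 desaturase gene of the roundworm *Caenorhabditis elegans*, which turns n-6 into n-3 polyunsaturated fatty acids throughout the body, and the 3 WT samples came from wildtype mice. Both genotypes were kept for life on a modified AIN93G diet with 10% safflower oil by weight, which supplied 22% of the energy and is rich in n-6 fatty acids. Every sample was a pool of glands from several mice, and the oestrous stage was not determined, so the spread within a genotype is that between pools. The estimated counts summed to between 204539059 and 232148824 per sample, and levels are given as CPM, the counts of a sample scaled to a common total after normalization across samples.

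The CCR4-NOT complex shortens the poly(A) tails of messenger RNAs in the cytoplasm, a step that silences translation and leads to decapping and decay. Its subunits sit on a large scaffold, CNOT1. The nuclease activity comes from a CCR4-type enzyme (CNOT6 or CNOT6L) and a CAF1-type enzyme (CNOT7 or CNOT8), and adaptor proteins bring the complex to particular RNAs. GARRE1 (the granule-associated effector of Rac and RhoG) is named for its place in cytoplasmic granules and for binding the active forms of the small GTPases RAC and RHOG, which control the actin cytoskeleton, and it has been found together with CCR4-NOT subunits.

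*Garre1* lies on the minus strand of chromosome 7 (chr7:34236707-34313551, GRCm38) and has 10 annotated transcripts, of which 4 are protein-coding. In the row with the symbol, it was at 57.8, 58.3 and 38.3 CPM in *fat-1* and at 16.3, 16.9 and 13.8 CPM in WT. All *fat-1* samples were above all WT samples, and sample 3 was the lowest of each genotype. The means were 51.5 ± 11.4 and 15.7 ± 1.65 CPM (SD, n = 3 each), a difference of 1.71 ± 0.21 on the log2 scale (SE), or 3.28-fold. These are the values the gene was selected on. The other row of the same locus, which has no symbol, ran the opposite way, at 15.8, 18.7 and 39.6 CPM in *fat-1* and 56.8, 72.1 and 61.4 CPM in WT. Here all *fat-1* samples were below all WT samples, and *fat-1* sample 3, the lowest *fat-1* sample in the row with the symbol, was the highest of the *fat-1* samples. The log2 difference of this row was -1.36 ± 0.38 (SE).

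Added together, the rows of the *Garre1* locus came to 73.2, 76.8 and 78.0 CPM in *fat-1* and 73.2, 88.9 and 75.3 CPM in WT. The genotypes overlapped, with means of 76.0 ± 2.48 and 79.1 ± 8.50 CPM and a log2 difference of -0.06 ± 0.10 (SE). WT sample 2 was the highest of the 6. What differed was the share of the locus in the row with the symbol, which was 78.6%, 75.8% and 49.2% in *fat-1* and 22.3%, 19.0% and 18.4% in WT. The mean share was 67.8 ± 16.2% against 19.9 ± 2.09%, a difference of 47.9 points. This difference was 57.3 points without *fat-1* sample 3 and 42.6 points without *fat-1* sample 1. Which annotated or assembled transcripts stand behind the row without a symbol is not given in the sources used here, so the quantity that differed is the placement of counts between rows of 1 locus.

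**Figure D1:**
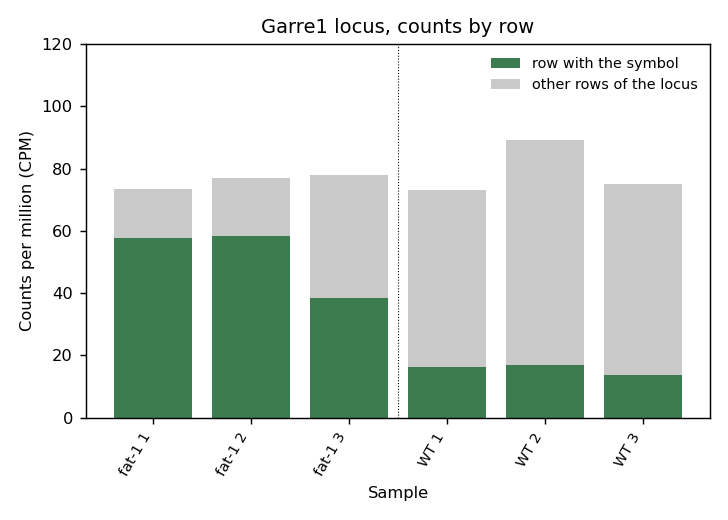
Stacked bars show the level of the Garre1 locus in each sample in CPM, with the row that carries the symbol below and the other row of the locus above. The bar heights are close to the locus sums of 73.2 to 88.9 CPM, which were normalized separately from the rows, while the lower segment is 38.3 to 58.3 CPM in fat-1 and 13.8 to 16.9 CPM in WT.

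Part of *Garre1* is shared in sequence with a neighbour. Of the 8239 bases in its annotated exons, 2696 overlap exons of the antisense gene *Gm12758* on the opposite strand, and 28.9% of its 100-base words also occur there. Whether the counting used strand is not stated, so reads of this stretch cannot be assigned between them. *Gm12758* formed a locus of its own with 1074, 1114 and 814 counts in *fat-1* and 1066, 893 and 1048 counts in WT. Its log2 difference was 0.02 ± 0.20 (SE), and its counts overlapped between the genotypes.

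Across the 9 CCR4-NOT subunits, no difference between the genotypes passed the test, either by the row with the symbol or by locus sum. By edgeR's quasi-likelihood test, 0 of 9 rows and 0 of 9 locus sums had an adjusted *p* at or under 0.05, and 0 of 9 of each had an unadjusted *p* at or under 0.05. Over the whole table, 0 of 30683 rows (0%) and 0 of 24061 loci (0%) passed the adjusted threshold, and 678 rows (2.21%) and 274 loci (1.14%) passed the unadjusted one. The exact test of edgeR and the Wald test of DESeq2 also gave 0 of 9 rows and 0 of 9 locus sums at the unadjusted threshold, which 2% and 3.02% of all rows and 1.07% and 1.49% of all loci passed by these tools. The smallest unadjusted *p* of a row belonged to *Cnot1* by all 3 tools, at 0.129, 0.133 and 0.119. The genotypes overlapped in all 9 rows and all 9 locus sums, where 5.26% of all tested rows and 4.15% of all tested loci did not overlap.

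The locus sums of the 2 genotypes lay close together. Their median log2 difference was 0.02, beside 0.00 over all tested loci, and their median size without sign was 0.02, beside 0.11 over all tested loci. The sum was higher in *fat-1* for 8 subunits and lower for 1, *Cnot8*, and all 9 intervals included 0. The 95% intervals of the 9 locus sums ran between 0.800-fold and 1.29-fold, so larger differences than these fall outside the intervals. For the rows, 3 were higher and 6 lower, the median size without sign was 0.16, equal to that over all tested rows (0.16), and the intervals ran between 0.340-fold and 2.72-fold.

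**Figure D2:**
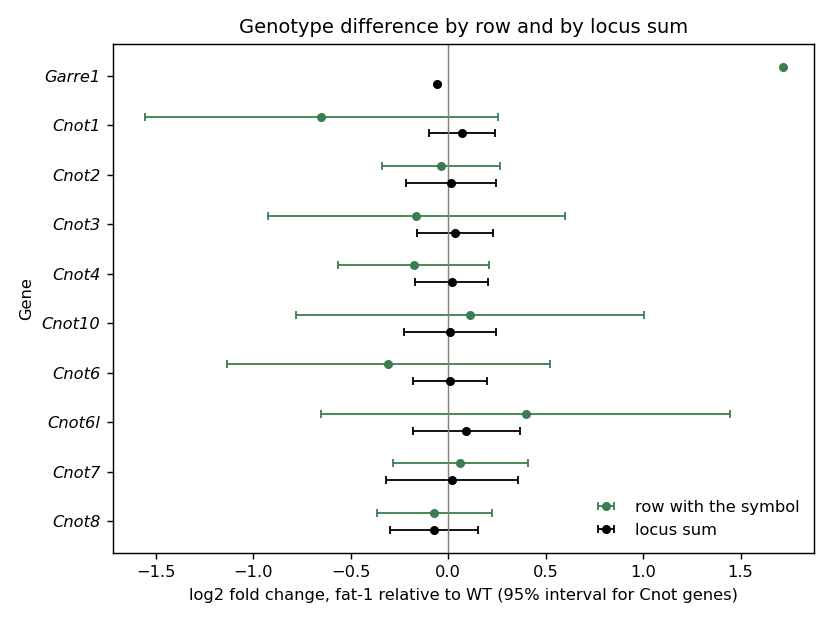
Points show the log2 difference of fat-1 relative to WT for each gene by the row with the symbol and by the locus sum, with 95% intervals for the Cnot genes and none for Garre1, whose row was chosen on this contrast. All Cnot intervals include 0, and those of the locus sums are narrower than or similar to those of the rows.

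*Cnot1* (chr8:95719451-95807464, minus strand) encodes the scaffold on which the other subunits assemble. Its row with the symbol was at 49.0, 23.2 and 57.7 CPM in *fat-1* and 70.6, 51.6 and 81.7 CPM in WT. The sample numbered 2 was the lowest of each genotype, and the genotypes overlapped. The log2 difference was -0.65 ± 0.37 (SE), with an adjusted *p* of 1.00 by edgeR's quasi-likelihood test. The other rows of the locus held most of its counts, at 245, 257 and 220 CPM against 193, 214 and 198 CPM. These did not overlap between the genotypes, with a log2 difference of 0.25 ± 0.11 (SE) for the row without a symbol (unadjusted *p* = 0.0575, adjusted *p* = 1.00 by the quasi-likelihood test). The sum was 292, 279 and 278 CPM in *fat-1* and 264, 265 and 281 CPM in WT, a log2 difference of 0.07 ± 0.07 (SE). The means of the sum were 283 ± 7.80 and 270 ± 9.33 CPM, and WT sample 3 was above 2 of the *fat-1* samples. The locus also holds a row of *Gm26265*, which had 5 to 17 counts.

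*Cnot2* and *Cnot3* encode the paired subunits of the module that binds the far end of the scaffold and takes part in the repression of target RNAs. The row of *Cnot2* (chr10:116485161-116581511, minus strand) held most of its locus and was at 86.7, 92.5 and 78.9 CPM in *fat-1* and 81.5, 89.1 and 94.3 CPM in WT. Its locus sum was 92.8, 102 and 92.0 CPM against 89.4, 92.3 and 103 CPM, a log2 difference of 0.01 ± 0.10 (SE). The highest and the lowest sample of that sum were both WT. For *Cnot3* (chr7:3645268-3661109, plus strand), the row with the symbol varied more, from 15.4 to 33.0 CPM in *fat-1* and from 22.2 to 32.2 CPM in WT, with a log2 difference of -0.16 ± 0.31 (SE). The *Cnot3* sum was 77.6, 80.2 and 80.7 CPM in *fat-1* and 76.1, 74.7 and 81.8 CPM in WT, with a log2 difference of 0.04 ± 0.08 (SE). *Fat-1* sample 3 was thus the lowest of all samples in the *Cnot3* row and within the range of the others in the sum.

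*Cnot4* (chr6:35022065-35133724, minus strand) encodes a RING-type ubiquitin ligase that binds the complex loosely in mammals. Its row was at 57.2, 42.8 and 58.4 CPM in *fat-1* and 57.6, 61.8 and 59.7 CPM in WT. The other row was at 9.12, 25.6 and 8.91 CPM in *fat-1* and 6.83, 6.81 and 6.37 CPM in WT. All *fat-1* samples were above all WT samples in this other row, and sample 2 stood far above the rest. Its log2 difference was 1.12 ± 0.45 (SE), with an unadjusted *p* of 0.0476 and an adjusted *p* of 1.00 by the quasi-likelihood test. The *Cnot4* sum was nearly even, at 66.1, 68.2 and 67.4 CPM against 64.6, 68.4 and 66.2 CPM, with a log2 difference of 0.02 ± 0.08 (SE). *Cnot10* (chr9:114585878-114640184, minus strand) encodes a subunit that binds the near end of the scaffold together with CNOT11. Its row ranged from 13.7 to 24.2 CPM in *fat-1* and from 13.1 to 27.4 CPM in WT, and its sum was 45.3, 38.6 and 40.3 CPM against 41.4, 40.9 and 41.0 CPM. The log2 difference of the *Cnot10* sum was 0.01 ± 0.10 (SE).

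Of the CCR4-type nucleases, *Cnot6* (chr11:49671503-49712723, minus strand) was at 31.3, 37.7 and 16.6 CPM in *fat-1* and 31.7, 44.4 and 29.9 CPM in WT by its row, and at 122, 114 and 113 CPM against 111, 116 and 120 CPM by its sum. The log2 differences were -0.31 ± 0.34 and 0.01 ± 0.08 (SE). *Fat-1* sample 3 was again the lowest in the row and close to the others in the sum. *Cnot6l* (chr5:96070333-96164171, minus strand), its close relative, was at 98.9, 102 and 81.5 CPM in *fat-1* and 82.4, 30.6 and 101 CPM in WT by its row. WT sample 2 stood apart, and in the other row of the locus the same sample was the highest, at 65.7 CPM against 14.9 to 24.9 CPM in the other samples. The *Cnot6l* sum was 114, 124 and 102 CPM in *fat-1* and 107, 96.1 and 116 CPM in WT, with a log2 difference of 0.09 ± 0.11 (SE). The log2 difference of its row was 0.40 ± 0.43 (SE) over all samples and 0.03 without WT sample 2. The 2 relatives shared no 100-base word, so reads of that length need not be split between them.

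Of the CAF1-type nucleases, *Cnot7* (chr8:40492540-40515847, minus strand) was at 65.0, 53.8 and 51.4 CPM in *fat-1* and 58.1, 53.3 and 51.5 CPM in WT by its row. Its sum was 71.7, 57.6 and 53.5 CPM against 66.8, 56.7 and 56.9 CPM, with a log2 difference of 0.02 ± 0.14 (SE). Sample 1 was the highest of each genotype. *Cnot8* (chr11:58104153-58118594, plus strand) was the only member whose locus consisted of 1 row, so row and sum hold the same counts. It was at 41.4, 47.5 and 44.3 CPM in *fat-1* and 46.6, 45.1 and 48.4 CPM in WT, with a log2 difference of -0.07 ± 0.09 (SE). The lowest sample was a *fat-1* sample and the highest a WT sample, with the others between them. *Cnot7* and *Cnot8* shared no 100-base word with each other. Small parts of some members do recur elsewhere, namely 8.11% of the words of *Cnot3* (in *Leng1* and the pseudogene *Gm9207*), 3.99% of *Cnot8* (in *Gm18860*), 3.62% of *Cnot1* (in *4930513N10Rik* and *Gm6158*) and 1.60% of *Cnot7* (in *Zdhhc2*).

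**Figure D3:**
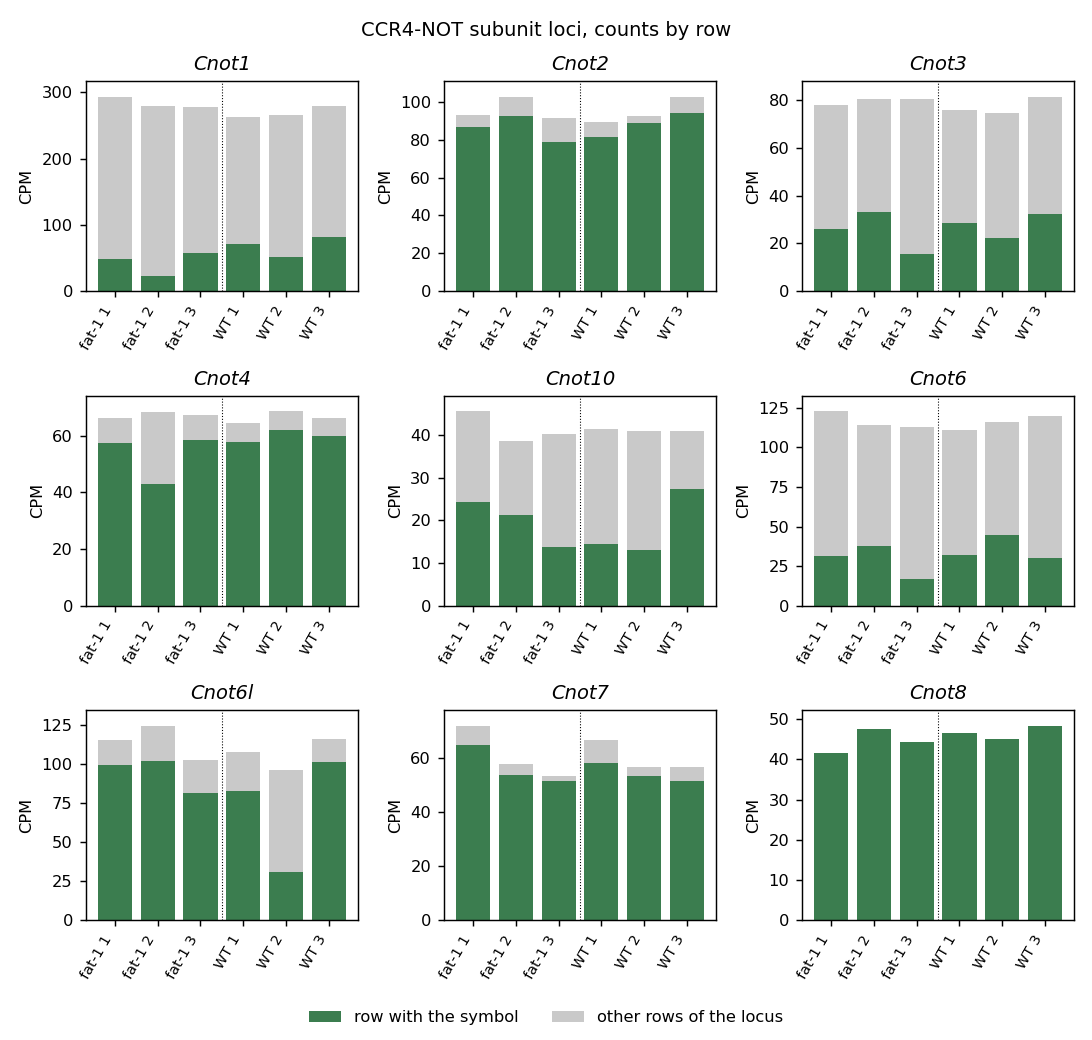
Stacked bars show, for each CCR4-NOT subunit and sample, the CPM of the row with the symbol and of the other rows of its locus. Total heights differ less between samples than the lower segments do, as in Cnot6l, where WT sample 2 has 30.6 CPM in the row with the symbol and a locus sum of 96.1 CPM.

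The division of a locus between its rows varied more than its total. Within a genotype, the coefficient of variation of the 8 CCR4-NOT rows with other rows in the locus had a median of 28.6%, and that of their locus sums a median of 5.04%. Over 5804 rows of loci with more than 1 row and a mean of at least 20 CPM, the medians were 24.7% and 9.78%. In all 8 of these CCR4-NOT loci, the row with the symbol and the other rows differed between genotypes in opposite directions, of whatever size, as did 64.4% of 7219 such rows in the table. Where a locus sum hardly differs, as in these loci, a higher row leaves less for the other rows. The opposite directions therefore follow from the even sums and are no separate result. The same holds for *Garre1*, and the size of its difference is what it was chosen by.

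Shares of the locus in the row with the symbol were compared between genotypes in the 8 CCR4-NOT subunits with a two-sided exact permutation test, whose smallest possible *p* with 3 against 3 samples is 0.1. The genotypes did not overlap for 1 of the 8, *Cnot4*, where 7.96% of 7341 shares in the table did not overlap. The *Cnot4* share was 86.3%, 62.5% and 86.8% in *fat-1* and 89.4%, 90.1% and 90.4% in WT (exact permutation *p* = 0.1). Its mean difference was -11.4 points, and -3.44 points without *fat-1* sample 2. The share of *Cnot1* was 16.7%, 8.29% and 20.8% in *fat-1* and 26.8%, 19.4% and 29.2% in WT, with *fat-1* sample 3 above WT sample 2 (exact permutation *p* = 0.2). *Cnot6l* had shares of 86.0%, 81.7% and 79.8% in *fat-1* and 76.8%, 31.8% and 87.2% in WT (exact permutation *p* = 0.5). Its mean difference of 17.2 points was 0.50 points without WT sample 2. The shares of *Cnot2*, *Cnot3*, *Cnot6*, *Cnot7* and *Cnot10* also overlapped, with exact permutation *p* between 0.4 and 0.9. *Cnot10* had the widest range after *Cnot6l*, from 32.0% in WT sample 2 to 66.9% in WT sample 3. Counting error of these shares, with the estimated counts taken as independent reads, was at most 1.07 points (Wilson 95% half-width) and covers counting only.

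**Figure D4:**
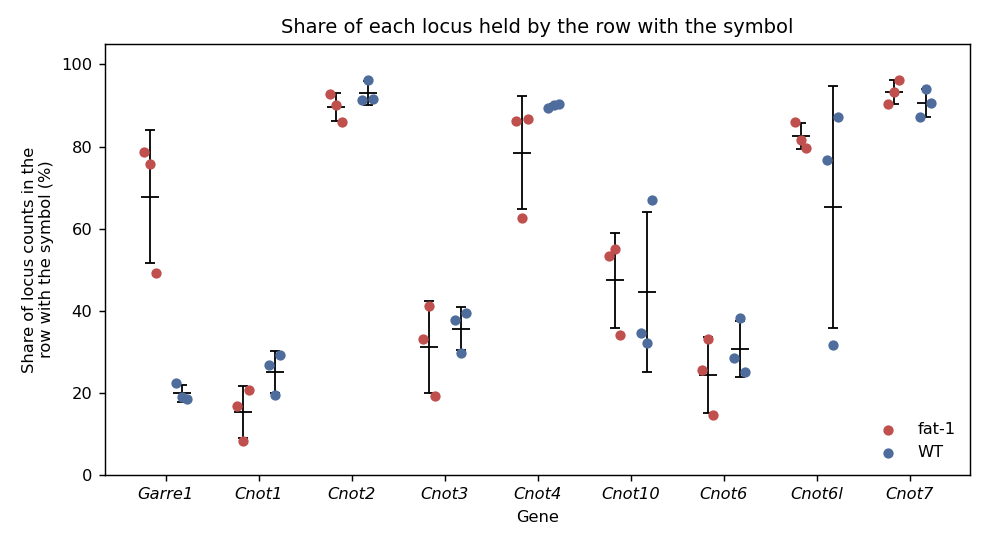
Points give the percentage of each locus held by the row with the symbol, 1 point per sample, for Garre1 and the 8 CCR4-NOT subunits whose locus has more than 1 row. Garre1 and Cnot4 are the genes whose fat-1 and WT points do not overlap, at 49.2% to 78.6% against 18.4% to 22.3% and at 62.5% to 86.8% against 89.4% to 90.4%.

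Levels of different genes were compared as locus CPM per kilobase of annotated exons, over all 6 samples. *Cnot2* was the highest, with a mean of 23.4 CPM per kilobase, and all 6 samples were above those of every other member. *Cnot6* (17.6), *Cnot8* (17.3) and the scaffold *Cnot1* (16.1) followed, with ranges that overlap. *Cnot3* (11.0), *Cnot6l* (10.7), *Cnot7* (10.4) and *Garre1* (9.41) formed the next group of overlapping ranges. *Cnot4* (6.83) and *Cnot10* (6.23) were the lowest and overlapped each other, and all their samples were below all *Garre1* samples. The order depended on the length used. With the longest annotated transcript, *Cnot1* came first at 33.0 CPM per kilobase and *Cnot2* was at 32.3, while *Cnot10* was still the lowest at 8.48. *Cnot4* and *Garre1* changed places, with *Cnot4* at 16.4 to 17.4 and *Garre1* at 11.8 to 14.3 CPM per kilobase, so the order of these 2 genes was not settled.

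**Figure D5:**
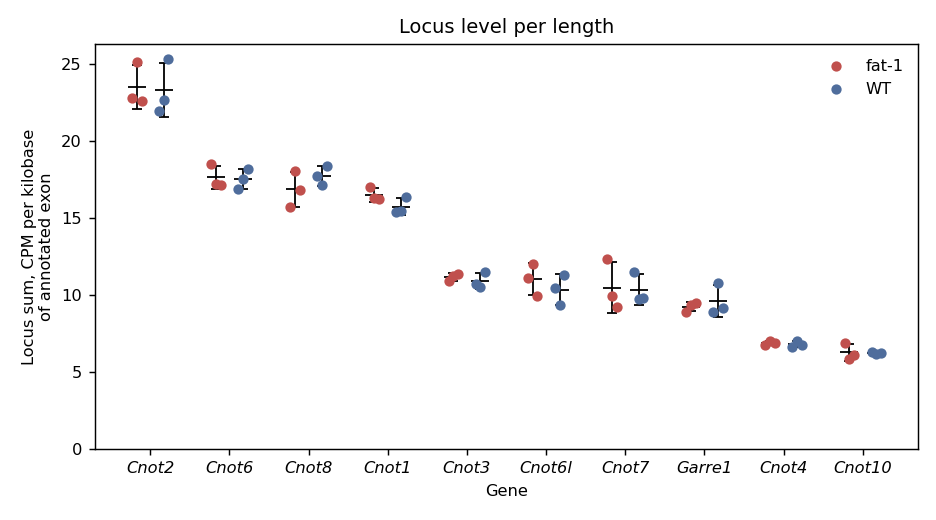
Points give locus CPM per kilobase of annotated exons in each of the 6 samples for the 10 genes. The Cnot2 samples lie between 21.9 and 25.3, above all others, and the Garre1 samples lie between 8.88 and 10.8.

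The other genes of the pathway were 89 genes in 7 lists, all of which were in the table and tested. Some of their loci also hold another gene, and the sum of such a locus does not describe the named gene alone. *Pabpc1l*, in a locus with *Ywhab*, was at 0.302 to 0.333 CPM in *fat-1* by its row and at 191 to 221 CPM by its sum. For *Paip2*, in a locus with *Matr3*, these were 22.7 to 26.8 and 402 to 445 CPM. The quasi-likelihood test gave 2 rows at the unadjusted threshold (2.25%, beside 2.21% of all rows), both higher in *fat-1*, and 0 of 89 locus sums (beside 1.14% of all loci). No row or sum passed the adjusted threshold by that test. Both rows belong to the list of microRNA silencing and translational repression. *Gigyf1*, which encodes a partner of the translational repressor 4EHP, was at 40.7, 44.5 and 39.0 CPM in *fat-1* and 21.6, 23.1 and 25.9 CPM in WT by its row, without overlap. Its log2 difference was 0.82 ± 0.14 (SE), with an unadjusted *p* of 0.00108 and an adjusted *p* of 1.00 by the quasi-likelihood test, while the row was below the adjusted threshold by DESeq2. The *Gigyf1* locus sum was 98.0, 115 and 102 CPM against 96.9, 96.1 and 110 CPM, with overlap and a log2 difference of 0.06 ± 0.10 (SE). *Tnrc6b*, which links Argonaute to CCR4-NOT, was at 80.0, 74.0 and 76.1 CPM against 58.4, 62.0 and 62.6 CPM by its row (log2 difference 0.33 ± 0.11, unadjusted *p* = 0.0229, adjusted *p* = 1.00 by the quasi-likelihood test). By its sum, the means were 101 ± 12.4 and 101 ± 11.6 CPM. Both genes were named for the *p* of their rows, and sums that overlapped between the genotypes were the rule in the table, where 4.15% of loci did not overlap.

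In the other 6 lists, 0 rows and 0 locus sums passed the unadjusted threshold by the quasi-likelihood test. They were 3 other CCR4-NOT components, 25 proteins that recruit the complex to RNA, 8 other deadenylases, 9 poly(A)-binding proteins and their partners, 14 genes of decapping and decay, and 17 Rac and RhoG GTPases and regulators. The exact test gave 2 of the 89 rows at the unadjusted threshold (beside 2% of all rows) and DESeq2 gave 3 (beside 3.02% of all rows). Of the latter, *Gigyf1* passed the adjusted threshold, as did 0.303% of all rows by DESeq2. Both tools called *Zfp36l2*, of the recruiting proteins, which binds AU-rich elements. Its row was at 8.70, 21.8 and 32.7 CPM in *fat-1* and 44.1, 21.8 and 115 CPM in WT, with a log2 difference of -1.51 ± 0.74 (SE) by the quasi-likelihood test. The sums of its locus, which also holds *Thada*, were 240 ± 11.6 and 240 ± 15.7 CPM. Neither tool gave a locus sum at the unadjusted threshold. Of the components, the locus sum of *Cnot9*, whose product binds adaptors such as TNRC6 proteins, was 64.7 ± 1.77 CPM in *fat-1* and 63.5 ± 4.07 CPM in WT. That of *Cnot11*, the partner of CNOT10, was 33.6 ± 1.15 and 33.6 ± 2.90 CPM. *Rac1* and *Rhog*, which encode the GTPases that GARRE1 is named for, were at 348 ± 15.4 and 345 ± 14.9 CPM and at 89.1 ± 14.5 and 87.1 ± 14.6 CPM. The log2 differences of these 2 sums were 0.01 ± 0.07 and 0.03 ± 0.17 (SE). Each of these 4 loci had 1 row. The smallest unadjusted *p* among the 89 locus sums was 0.0763, for *Elmo2*, whose product is part of a Rac activator. The genes *Cnot9*, *Cnot11*, *Rac1*, *Rhog*, *Elmo2*, *Zfp36l2*, *Pabpc1l* and *Paip2* were picked for naming after their values were seen. So were *Fabp4*, *Lep*, *Pparg*, *Cd68*, *Cd79a*, *Cdh5*, *Tek*, *Tie1*, *Kdr* and *Egfl7* in the next paragraph.

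The isolates held RNA of several cell types in amounts that differed between samples. The luminal marker *Krt8* was at 210 to 899 CPM in *fat-1* and 221 to 645 CPM in WT, the basal marker *Krt5* at 33.8 to 180 and 32.2 to 111 CPM, the leukocyte marker *Ptprc* at 166 to 407 and 157 to 398 CPM, and the fibroblast marker *Dcn* at 898 to 1996 and 1618 to 2080 CPM. Summed over lists, 13 luminal markers were at 1190 to 5084 CPM in *fat-1* and 1267 to 4035 CPM in WT, and 9 basal markers at 165 to 624 and 158 to 505 CPM. The 12 immune markers summed to 1595 to 2315 and 1491 to 2428 CPM, the 8 fibroblast markers to 1603 to 6197 and 3416 to 5750 CPM, and the 8 endothelial markers to 220 to 272 and 245 to 300 CPM. These are locus sums, and some loci also hold another gene. In *fat-1*, the *Cd68* locus, shared with *Eif4a1*, was at 668 to 860 CPM and the *Cd68* row at 3.41 to 4.03 CPM. For *Cd79a*, in a locus with *Arhgef1*, these were 278 to 507 and 0.614 to 1.63 CPM. The immune sum therefore does not describe the listed genes alone. The 8 adipocyte markers summed to 90.7 to 114 CPM in *fat-1* and 118 to 136 CPM in WT, without overlap, and nearly all of this sum was *Fabp4*, at 83.2 to 106 CPM and 112 to 126 CPM. The mean log2 level of the same 8 markers overlapped, at 1.27 to 1.49 and 1.34 to 1.60, and *Lep* was at 0 in WT sample 3. Of all markers, 0 rows (beside 2.21% of all rows) and 1 locus sum (beside 1.14% of all loci) passed the unadjusted threshold by the quasi-likelihood test. That sum was *Fabp4* of the adipocyte list, which was lower in *fat-1*. The other adipocyte locus sums were at 0.865 CPM or less in every sample, apart from *Pparg* at 4.46 to 7.61 CPM. Of the endothelial list, the locus sums of *Cdh5*, *Tek* and *Tie1* were lower in *fat-1* without overlap (log2 difference -0.26, -0.46 and -0.27). Over all tested loci, 4.15% did not overlap. The sums of *Kdr* and *Egfl7* were higher in *fat-1*, with overlap. In such bulk samples, fewer cells of a type and less RNA per cell cannot be told apart.

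The level of each member's locus was compared with the mean log2 level of the luminal and basal markers over the 6 samples, in 10 relations with exact permutation tests. None passed the adjusted threshold, the smallest adjusted *p* being 0.311 for Pearson's r and 0.495 for Spearman's rho. The largest Pearson's r was that of *Cnot2*, with r = -0.92 (exact permutation *p* = 0.0556) and rho = -0.71 (exact permutation *p* = 0.136). It was r = -0.45 without the 2 samples farthest from the median marker level, so it rested on those samples. The largest rho was that of *Cnot10*, at 0.77 (exact permutation *p* = 0.103), with r = 0.70 (exact permutation *p* = 0.1) and r = 0.66 without those 2 samples. For *Garre1*, r was -0.17 (exact permutation *p* = 0.769) and rho -0.49 (exact permutation *p* = 0.356), with r = -0.79 without those 2 samples. The 3 samples of a genotype are too few for a value within each. With the rows with the symbol in place of the sums, 0 of 10 relations passed (smallest adjusted *p* = 0.481 for Pearson's r and 0.743 for Spearman's rho, exact permutation tests). The relation of the shares to the cell makeup was not tested.

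Over the 6 samples, the loci whose level was most like that of the *Garre1* locus, by Pearson's r of log2 CPM across 14007 loci, were *Ptpn12* (r = 0.99), *Gfm1* (r = 0.99) and a locus that holds *Stam*, *Tmem236* and *Gm37499* (r = 0.99). These loci share the libraries and their normalization with *Garre1*, and 104 loci had r above 0.9. *Ptpn12*, which encodes a tyrosine phosphatase, was at 130, 134 and 138 CPM in *fat-1* and 129, 160 and 135 CPM in WT, with WT sample 2 the highest, as for *Garre1*.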

How the data were processed

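RNA was sequenced as paired reads of 100 bases from 3 *fat-1* and 3 WT pools. Per the paper's methods and the labels, the authors used HISAT2 for mapping to GRCm38 and StringTie for assembly and quantification. The deposited matrix gives estimated counts, which are whole numbers and were not normalized. How coverage became counts, the StringTie annotation and the use of strand are not given in the sources used here. The labels name both total RNA and an mRNA library. Groups were taken from the sample labels.

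Rows and sums of rows with the same locus number were tested separately over the whole table by edgeR 4.0.16 under R 4.3.3, using its quasi-likelihood test (filterByExpr, TMM, genotype as the only term, Benjamini–Hochberg adjustment, threshold 0.05). CPM used the TMM library sizes, and log2 levels used a pseudocount of 1 CPM. A standard error is the log2 difference divided by the square root of F. DESeq2 1.42.0, the exact test of edgeR, other filters and normalizations, and leaving out each sample were alternatives. The tests were first tried on simulated data. With the spread of the real values, the quasi-likelihood test called no changed row and only part of the changed locus sums after adjustment. A count of 0 rows or 0 locus sums by adjusted *p* therefore does not show that these were equal. The exact test and DESeq2 called more of the changed rows and sums, but also many unchanged ones. Shares and correlations used exact two-sided permutation tests in Python 3.11.15 with scipy 1.17.1. Positions, exon lengths and shared words came from the GENCODE annotation of GRCm38. Counts per sample summed to at least 204539059. If the estimated counts are taken as independent reads, counting error of a member was at most 1.88% for a row with the symbol (at 2844 counts). For a locus sum it was at most 1.10% (at 8272 counts). The spread between pools was at least 5.31% for rows and 2.37% for sums.

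The members and lists were chosen with earlier results of these data known. All members are named. Of the other pathway genes, the 2 with the smallest unadjusted *p* of each list, by row and by sum, are named where that *p* was at most 0.05, as are 3 loci most like *Garre1* and 4 markers. The p-values take the pools as the units. Those of the correlations rest on all 6 samples, with the genotypes together.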

Additional observations from a re-analysis of the deposited data

How the results depend on the processing

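The log2 difference of every member kept its direction, by row and by locus sum, under another normalization, no filter on low counts, the older quasi-likelihood fit, the exact test, DESeq2 and the replicate block. Leaving out 1 sample at a time moved the row difference from -0.093 to 0.020 for *Cnot2*, -0.43 to 0.086 for *Cnot3*, -0.084 to 0.52 for *Cnot10* and -0.039 to 0.13 for *Cnot7*. Without a change of sign, it moved from -0.91 to -0.35 for *Cnot1* (the latter without *fat-1* sample 2), from -0.56 to -0.035 for *Cnot6* (without *fat-1* sample 3), from -0.26 to -0.047 for *Cnot4* (without *fat-1* sample 2), from 0.031 (without WT sample 2) to 0.73 for *Cnot6l* and from -0.12 to -0.017 for *Cnot8*. It moved the locus sum from -0.11 to 0.034 for *Garre1*, -0.040 to 0.089 for *Cnot2*, -0.050 to 0.059 for *Cnot10*, -0.018 to 0.047 for *Cnot6* and -0.10 to 0.10 for *Cnot7*. The *Garre1* row stayed between 1.61 and 1.89, which is a description only, since the row was chosen on this contrast.

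Over the whole table, rows past the adjusted threshold numbered 0 by the quasi-likelihood test, 32 by the exact test and 93 by DESeq2, and 0 to 2 when a sample was left out. For locus sums the counts were 0, 6 and 8, and 0 to 1. On simulated data with the real spread, the exact test and DESeq2 also called many unchanged rows and loci. Their counts may therefore hold false calls. Without the filter, 1136 rows and 579 loci passed the unadjusted threshold, beside 678 and 274 with it. Leaving out *fat-1* sample 1 gave 482 loci at that threshold, and leaving out WT sample 3 gave 542. The cause was not tested.

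Same-numbered samples did not all deviate together (correlations of 0.816, -0.169 and 0.142 for loci and 0.376, -0.0164 and 0.0521 for rows), and *fat-1* sample 2 correlated best with WT sample 3 over loci (0.813), so the numbers name the samples and do not pair them. With a replicate block, 0 rows and 0 loci passed the adjusted threshold, 861 rows and 421 loci passed the unadjusted one, and the *Cnot1* row was at -0.73 (unadjusted *p* = 0.0219, adjusted *p* = 1.00 by the quasi-likelihood test).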
